A study of Drosophila mojavensis with 137 samples.

Results

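Virgin females of Drosophila mojavensis from Punta Prieta, Baja California, were compared with virgin males of the same population. D. mojavensis is a fruit fly of the Sonoran Desert region that breeds in rotting cactus. The members are the arrays whose titles give the population Punta Prieta and virgin flies, on either cactus: 23 arrays of females and 27 of males, 50 of the 137 arrays in the series. The series asked how adult expression depends on population, rearing cactus, mating and the days from egg to adult. All flies were wild type and every sample was RNA of whole flies, labelled with Cy3 on 1-colour NimbleGen arrays. Females reared on organ pipe cactus gave 12 arrays, with 2 at 14 days of egg-to-adult development, 4 at 15 days, 2 at 16 days, 3 at 17 days and 1 at 18 days. Males reared on organ pipe gave 15 arrays, with 2, 4, 4, 3 and 2 at the same days. Females reared on agria cactus gave 11 arrays, with 3 at 14 days, 4 at 15 days and 4 at 16 days, and males on agria gave 12 arrays, 4 at each of these days. The labels do not say how many flies made up a sample or whether replicates came from separate cultures, so the p-values cover the spread among these arrays and no more.

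Adult fruit flies differ widely in expression between the sexes. Females carry ovaries, in which nurse cells load the eggs with maternal RNA, and males carry testes, whose germ cells transcribe many genes that are hardly used elsewhere, as well as accessory glands that make seminal fluid proteins. In RNA of whole flies these organs are measured together with all other tissues, so more cells of a type and more RNA per cell cannot be told apart. The files give each transcript by its FlyBase transcript ID without a gene name, and a RefSeq table of 15130 genes held 0 of the 14528 IDs. No gene, pathway or organ could therefore be named, and transcripts are described by number, size and brightness, with a few given by ID.

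The sex of each array was checked with transcripts chosen on other arrays, the 45 of Las Bocas virgins (19 of females and 26 of males), a population from Sonora. There, 367 transcripts were over 4-fold higher in females and 1390 over 4-fold higher in males (limma, adjusted p below 0.05). In Punta Prieta virgins the mean log2 value of the 367 transcripts lay between 12.18 and 12.98 on female arrays, against 9.78 to 10.02 on male arrays. The mean of the 1390 lay between 9.08 and 10.13 on female arrays, against 12.60 to 13.20 on male arrays. The sexes did not overlap on either mean, and all 50 arrays lay on the side of their label. The first principal component held 83.1% of the variance among the 50 arrays and separated the sexes. Pearson r between arrays of opposite sex was 0.560 to 0.761, against 0.826 to 0.996 between arrays of 1 sex, and 0 arrays were identical.

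**Figure D1:**
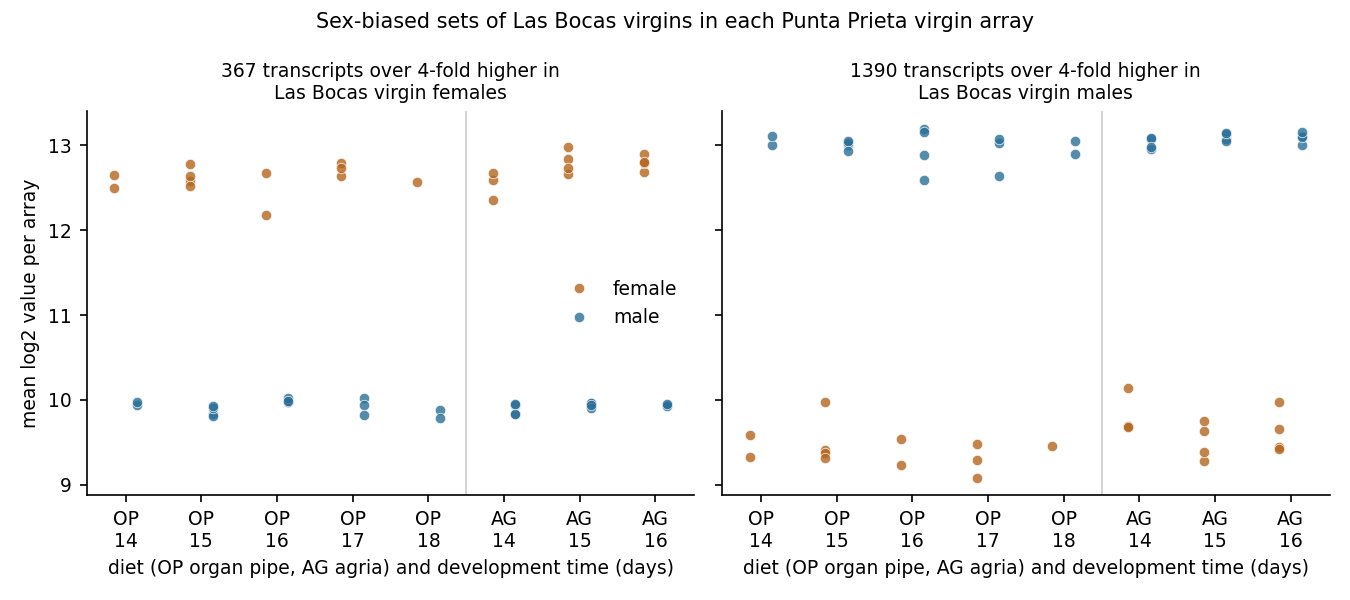
Mean log2 value per array (vertical axis) of 2 transcript sets chosen on Las Bocas virgins, by diet and development time; each point is 1 Punta Prieta virgin array, females left of males within each diet and day. Female arrays lie at 12.18 to 12.98 in the left panel, all above the male arrays, and at 9.08 to 10.13 in the right panel, all below them.

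Some arrays stood apart from others of their sex. The female array on agria, 14 days, replicate 1, had the highest mean of the male set among females, 10.13, with the lowest SD of log2 values, 1.65, where the 23 female arrays reached 1.90. The male arrays on organ pipe, 16 days, replicate 3, and 17 days, replicate 1, had means of the male set of 12.60 and 12.64 and SDs of 1.67 and 1.68, where the highest male SD was 1.89. All were kept. Without these 3 arrays the counts of the sex comparison moved little, as given with them below. The next highest female means of the male set were 9.98 on agria, 16 days, replicate 1, and 9.97 on organ pipe, 15 days, replicate 4. Their SDs were 1.71 and 1.70, and they were not among the 3 left out.

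Most transcripts differed between virgin females and males. With diet and day as covariates, 12252 of 14528 transcripts passed limma at an adjusted p below 0.05, 84.3% of those tested. Of these, 8314 were higher in females (57.2% of all tested) and 3938 higher in males (27.1%). Without the 3 arrays named above the numbers were 8424 and 4030. The values were set to a near-common distribution before deposit, so the balance of directions is relative to the array as a whole. The median sex difference over all transcripts was 0.28 on the log2 scale, as female minus male. It was 0.29 after median centring of every array, which left 68.6% of the calls on the female side, against 67.9%. The array medians were already close, at 11.27 to 11.50 in females and 11.26 to 11.43 in males. Centring could therefore change the balance little, and it does not test it.

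The threshold alone says little about size. The 95% interval of the sex difference lay within 0.5 of 0 on the log2 scale for 4705 transcripts, and 2537 of these had passed the threshold. The other 2168 of the 4705 had not passed, out of 2276 transcripts that did not pass. The median half-width of the interval was 0.15.

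Female-biased transcripts were many and mostly small in their difference, and male-biased ones were fewer and often large. The median size was 0.62 on the log2 scale for the 8314 higher in females, with a middle range from 0.38 to 1.01. For the 3938 higher in males the median was 1.07, with a middle range from 0.40 to 2.93. A difference over 2-fold was fitted for 2110 transcripts in the female direction and 2036 in the male direction. Beyond that the male side was longer: 318 transcripts were over 4-fold higher in females (2.19% of those tested) and 1456 over 4-fold higher in males (10.0%). Over 16-fold, the numbers were 40 and 385. Tested against these sizes themselves rather than against no difference (limma's treat), 1491 transcripts were over 2-fold higher in females and 1859 in males. At 4-fold, 245 and 1328 passed.

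The 2 directions differed in the form of their size distribution. On the female side the number per step of 0.5 on the log2 scale fell at each step up to 5, with 3180 transcripts below 0.5, 1331 between 1 and 1.5, 153 between 2 and 2.5 and 19 between 3.5 and 4. From 5 to 7 the steps held 5, 7, 6 and 2 transcripts, without a steady fall. On the male side the number fell to 235 between 2 and 2.5, reached 298 between 3 and 3.5, and fell again to 117 between 4.5 and 5. Male-biased transcripts thus formed a group around a log2 difference of 3 to 3.5 in addition to those with small differences. The 4-fold limit does not separate them cleanly: 105 male-biased transcripts lay between 2 and 2.2 and 92 between 1.8 and 2. On the female side 76 lay just inside the limit and 120 just outside over the same steps.

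**Figure D2:**
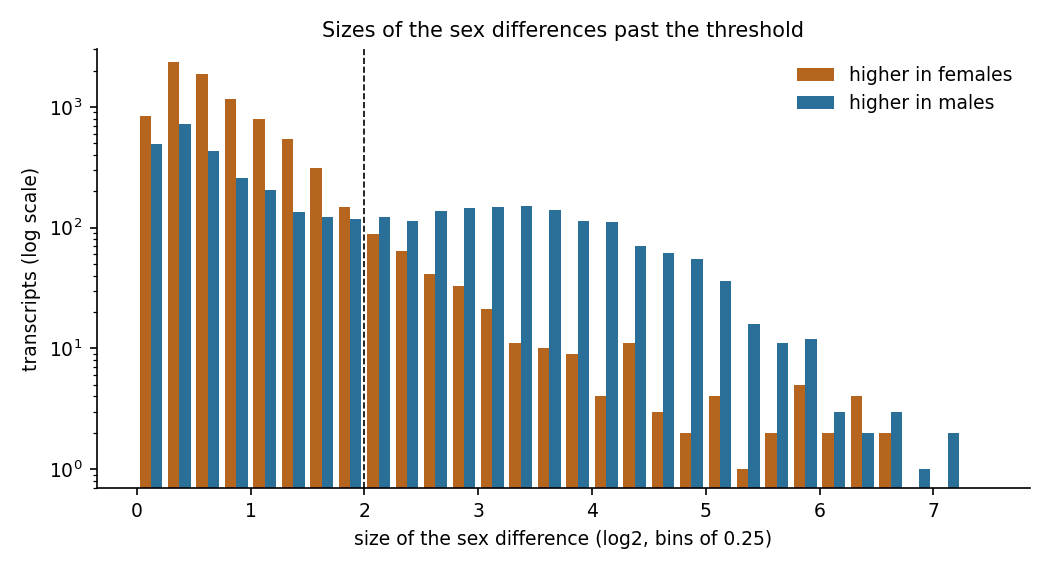
Number of transcripts (vertical log scale) by size of the sex difference on the log2 scale (horizontal, steps of 0.25), for those past the threshold, higher in females and higher in males; the dashed line marks 4-fold. In steps of 0.5 the female side falls up to a size of 5, with 318 transcripts beyond the line. The male side has a second hump between 2 and 5, with 1456 beyond the line.

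Complete separation of the sexes, with every array of a sex above every array of the other, held for 4143 transcripts, 28.5% of all. Of these, 2256 had all 23 female arrays above all 27 male arrays (15.5%) and 1887 had all male arrays above all female arrays (13.0%). As a share of the calls of each direction this was 27.1% of the female-biased and 47.9% of the male-biased transcripts.

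At the female extreme stood FBtr0163649. Its log2 values ran from 13.81 over a median of 14.62 to 15.09 in females on organ pipe and from 13.61 over 14.31 to 14.91 in females on agria. In males they ran from 7.31 over 7.68 to 8.48 on organ pipe and from 7.001 over 7.66 to 8.39 on agria. The lowest female array was thus over 5 log2 steps above the highest male array, on either diet. The fitted difference was 6.69 (SE 0.105, limma adjusted p = 1.68e-47), and within the 8 groups of diet and day it lay between 5.67 and 7.31. The lowest was on organ pipe at 18 days, with 1 female and 2 male arrays. The highest was on organ pipe at 14 days, with 2 and 2.

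FBtr0163650 was next, at 13.51, 15.02 and 15.37 (lowest, median and highest) in the 23 females and 7.77, 8.24 and 9.22 in the 27 males. Its difference was 6.60 (SE 0.109, limma adjusted p = 1.2e-46), and 6.07 to 7.24 within the 8 groups. The SDs of both transcripts were 0.36 to 0.42 in both sexes.

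At the male extreme, FBtr0169045 had log2 values of 6.49, 7.38 and 10.08 (lowest, median and highest) in females, against 14.52, 14.85 and 15.24 in males. The difference was -7.05 (SE 0.197, limma adjusted p = 3.35e-36). FBtr0172595 had 6.81, 7.89 and 10.19 in females, against 14.83, 15.05 and 15.33 in males, a difference of -7.02 (SE 0.195, limma adjusted p = 2.67e-36). In these transcripts the spread was on the female side, with SDs of 1.04 and 1.04 in females and 0.19 and 0.11 in males.

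The same 2 female arrays were highest for both transcripts, and neither had a high mean of the male set. On agria, 15 days, replicate 2, FBtr0169045 stood at 10.08 and FBtr0172595 at 9.72, and on organ pipe, 15 days, replicate 2, they stood at 9.48 and 10.19. The mean of the 1390 male-set transcripts on those arrays was 9.38 and 9.37, within the range of the other females. The female arrays with the highest male-set means after the agria array of 14 days were agria, 16 days, replicate 1, at 9.98, and organ pipe, 15 days, replicate 4, at 9.97. There the 2 transcripts stood at 7.05 and 7.02, and at 7.08 and 6.87.

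Brightness was taken as the mean of the female and the male mean of a transcript, on the log2 scale. It depends on the probes as well as on the RNA, so it orders array signals and not abundances. Split into 4 equal classes of 3632 transcripts, the dimmest class (up to 10.11) held 2406 female-biased transcripts, 66.2% of it, and 603 male-biased ones, 16.6%. The next class held 1900 (52.3%) and 1165 (32.1%), the third 1965 (54.1%) and 1176 (32.4%), and the brightest (above 12.48) 2043 (56.2%) and 994 (27.4%). Calls were thus made at all levels, and the share without a call lay between 13.5% and 17.2%.

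Large differences were concentrated at middle brightness. Over 4-fold differences towards females numbered 35, 129, 119 and 35 from the dimmest to the brightest class. Towards males they numbered 154, 596, 603 and 103. The median size among male-biased transcripts was 1.14, 2.07, 2.14 and 0.46 over the same classes, and among female-biased ones 0.50, 0.73, 0.82 and 0.54. A transcript that is dim in one sex and bright in the other has a middle mean by construction. Whether background compresses the differences of dim transcripts was not tested. The median SE of the sex difference fell with brightness, at 0.0959, 0.0843, 0.0706 and 0.0516.

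**Figure D3:**
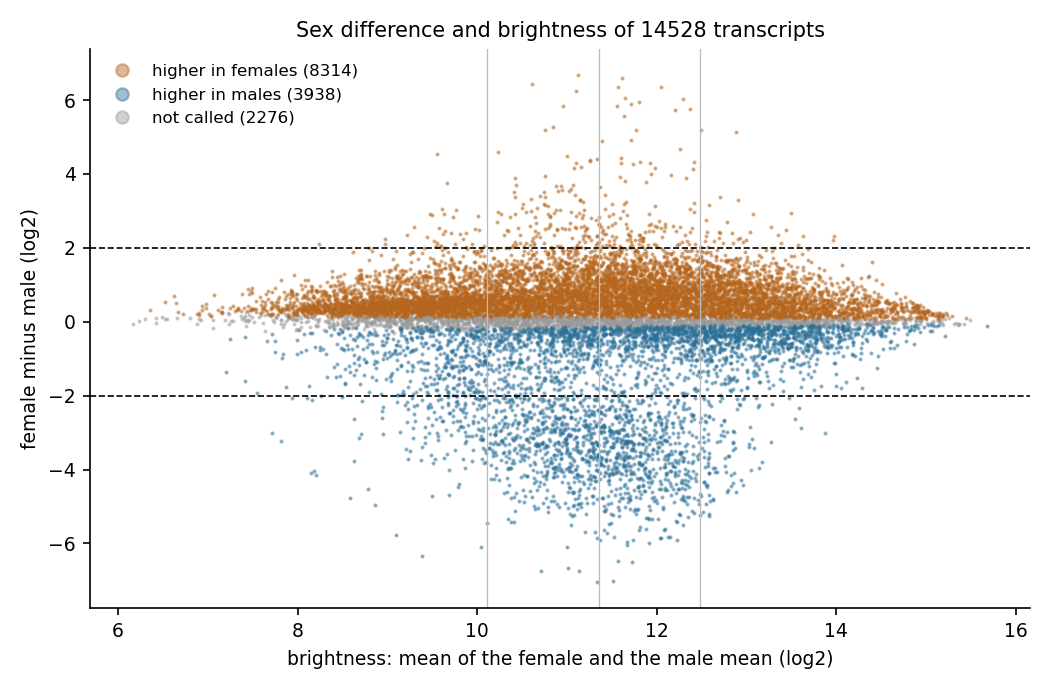
Sex difference (female minus male, log2, vertical axis) against brightness (horizontal axis) for 14528 transcripts; dashed lines mark 4-fold and grey vertical lines the limits of the 4 brightness classes. The cloud below -2 lies mainly in the 2 middle classes, which hold 596 and 603 of its transcripts.

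The level of a strongly biased transcript in each sex shows what lies behind these means. The 318 female-biased transcripts over 4-fold had a median level of 12.71 in females and 9.87 in males. The 1456 male-biased ones over 4-fold had a median level of 9.55 in females and 13.04 in males. Over all transcripts the median level was 11.33 in females and 11.35 in males. Of the 1456, 390 (26.8%) were in the dimmest 10% of transcripts in females and 408 (28.0%) in the brightest 10% in males. For the 318, 56 (17.6%) were in the dimmest 10% in males and 69 (21.7%) in the brightest 10% in females. The sets chosen on Las Bocas virgins gave similar numbers on these arrays. Of the 1390 male-set transcripts, 374 (26.9%) were in the dimmest 10% in females and 406 in the brightest 10% in males. Of the 367 female-set transcripts, 61 (16.6%) were in the dimmest 10% in males and 68 in the brightest 10% in females. Most of the strongly biased transcripts were therefore above the dimmest 10% in the sex where they were lower, and a level near the floor of the array does not distinguish absence from low expression.

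Replicate spread differed between the classes. To keep the choice of transcripts apart from these arrays, the sets of Las Bocas virgins were used. Within groups of 1 sex, diet and day, the 1390 male-set transcripts had a median SD of 0.36 in females and 0.21 in males, and the SD was larger in females for 1144 of them (82.3%). The 367 female-set transcripts had a median SD of 0.21 in females and 0.27 in males, and 127 (34.6%) were more variable in females. Over all transcripts the medians were 0.25 in females and 0.25 in males, with 41.5% more variable in females. Each set thus varied more in the sex where it was dimmer, and the median SE given above was larger for dim transcripts. Without the 3 arrays that stood apart the male set was more variable in females for 1278 transcripts (91.9%). The female set was so for 150 (40.9%), against 53.8% of all transcripts. The part of brightness in this was not tested.

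The sex difference was fitted separately on each diet, in fits that share no array. On organ pipe 10989 transcripts passed (75.6%), 7557 higher in females (52.0%) and 3432 in males (23.6%). On agria 11587 passed (79.8%), 7671 higher in females (52.8%) and 3916 in males (27.0%). In the same direction on both were 10123 transcripts, 92.1% of the organ pipe list and 87.4% of the agria list, made up of 6864 higher in females and 3259 higher in males. Opposite calls numbered 10, each with a difference of at most 0.28 on the diet where it was smaller. Transcripts that passed on organ pipe but not on agria numbered 856 and had a median size of 0.32, and 740 of them had the same sign on agria. Those that passed on agria but not on organ pipe numbered 1454 with a median size of 0.36, and 1229 had the same sign on organ pipe.

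Across the 14528 transcripts the sex differences of the 2 diets had a Pearson r of 0.990 and a regression slope of 0.998 for organ pipe on agria. This describes transcripts, which are not independent replicates, and both fits rest on values normalised together. The 2 estimates were within 0.5 of each other for 14284 transcripts (98.3%) and over 1 apart for 1. The lists over 4-fold overlapped closely on the male side: 1405 transcripts were on both, 95.4% of the 1472 on organ pipe and 97.9% of the 1435 on agria. On the female side 274 were on both, 95.5% of the 287 on organ pipe and 76.1% of the 360 on agria. All 360 passed the threshold on organ pipe in the same direction. Their median difference was 2.37 on organ pipe and 2.50 on agria.

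**Figure D4:**
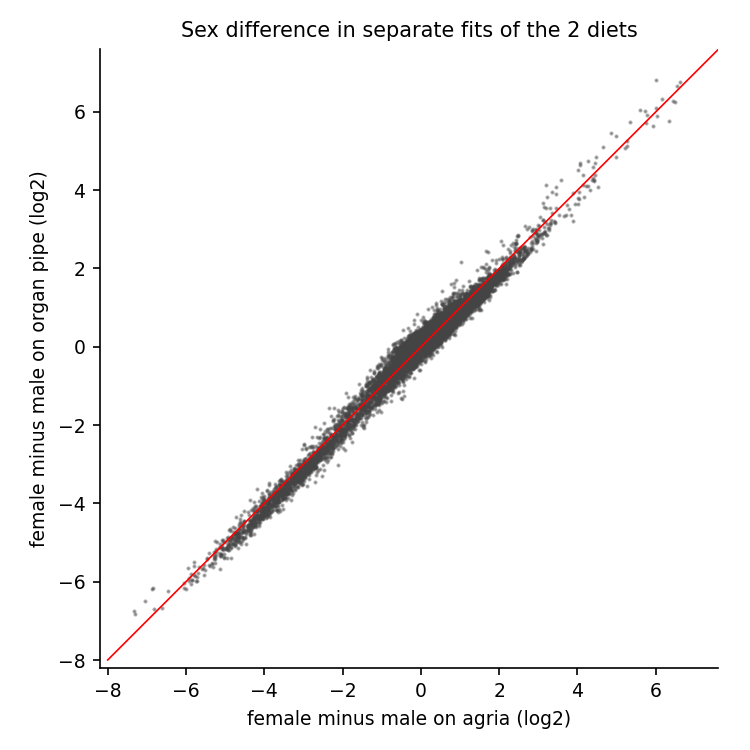
Sex difference on organ pipe (vertical axis) against that on agria (horizontal axis), female minus male on the log2 scale, for 14528 transcripts; the red line marks equal values. The points follow the line over the whole range (r = 0.990), and 1 transcript lies over 1 away from it.

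The difference between the diets was tested as an interaction. With sex by day also in the model, 0 transcripts passed for sex by diet in limma (0% of those tested), and the smallest adjusted p was 0.0669. Before adjustment, 1659 transcripts (11.4%) had a p below 0.05. The smallest adjusted p belonged to FBtr0171880, chosen after its values were seen, which is also 1 of the 10 with opposite calls. In the separate fits its sex difference was 0.28 on organ pipe and -0.30 on agria. With array weights 997 transcripts passed, and 11 after median centring of every array, so the count of 0 depends on these choices. The 95% interval of the interaction lay within 1 log2 of 0 for 14142 transcripts (97.3%) and within 0.5 for 7806 (53.7%). Diet differences of the sex effect over 2-fold are thus outside the interval for nearly all transcripts, whereas smaller ones could be missed in many.

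Development time changed the sex difference detectably for no transcript by limma (0% past an adjusted p below 0.05, smallest adjusted p 0.701, and 976 at an unadjusted p below 0.05, 6.72% of all). The 95% interval of the change per day lay within 0.5 log2 for 14257 transcripts (98.1%). This bound is per day, so over the range of 14 to 18 days larger changes remain within it. The count stayed at 0 with array weights, with days as categories and with 14 to 16 days only.

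The 8 groups of diet and day were also taken singly, with the transcripts chosen on Las Bocas virgins. The median difference of the 367 female-set transcripts was 2.26, 2.40, 2.10, 2.48 and 2.41 on organ pipe at 14 to 18 days, and 2.41, 2.54 and 2.56 on agria at 14 to 16 days. For the 1390 male-set transcripts it was -3.51, -3.41, -3.48, -3.54 and -3.45 on organ pipe, and -3.09, -3.49 and -3.36 on agria. All 367 were higher in females in 8 of 8 groups and 1389 of the 1390 higher in males in 8 of 8. The median nearest to 0 in the male set, on agria at 14 days, is in the group that holds the female array that stood apart. In the female set the median nearest to 0, on organ pipe at 16 days, is in the group of a male array that stood apart. That group also holds the female array with the lowest mean of the female set, 12.18 (replicate 1). The part of these arrays in the medians was not tested.

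Against virgins of the other population the sex differences were close to those of Punta Prieta. All 367 and all 1390 transcripts of the Las Bocas sets passed in the same direction in Punta Prieta, where 57.2% and 27.1% of all transcripts were called in these directions. Their median differences were 2.44 and -3.40 in Punta Prieta, against 2.50 and -3.25 in Las Bocas, where they had been chosen. On their own, Las Bocas virgins gave 12217 calls (84.1%), 7989 higher in females (55.0%) and 4228 in males (29.1%). In the same direction in both populations were 11221 transcripts, 91.6% of the Punta Prieta list and 91.8% of the Las Bocas list. Opposite calls numbered 43, each with a difference of at most 0.39 in the population where it was smaller.

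The sex difference of Punta Prieta virgins differed from that of Las Bocas virgins for 421 transcripts by the interaction term in limma, 2.90% of those tested, with 216 more positive and 205 more negative in Punta Prieta. Without the 3 arrays that stood apart 885 passed (362 and 523). Leaving out every array numbered replicate 2, which is 29 of the 95, gave 114. The median size was 0.39 and 9 transcripts were over 1. Of the 2765 transcripts with a mean difference of over 0.5 towards males, 120 passed (4.34%), and 86 of these had the larger male bias in Punta Prieta. Among the 5100 with a mean difference of over 0.5 towards females 113 passed (2.22%), 55 with the larger female bias in Punta Prieta. Another 188 of the 421 had a mean difference of at most 0.5 in either direction. In 94 of the 421 the fitted sex difference had opposite signs in the 2 populations, a count of signs whatever their size.

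The transcripts with the most negative interaction were male-biased in both populations and more so in Punta Prieta. FBtr0172763 stood at 9.47, 10.17 and 10.63 (lowest, median and highest) in Punta Prieta females and 12.15, 13.26 and 13.94 in Punta Prieta males. In Las Bocas it stood at 9.77, 10.19 and 10.58 in females and 10.08, 11.14 and 12.33 in males. The females of the 2 populations overlapped over nearly their whole range, and the males overlapped only between 12.15 and 12.33. The interaction was -2.13 (SE 0.152, limma adjusted p = 2.42e-20), with a sex difference of -3.02 in Punta Prieta and -0.89 in Las Bocas.

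FBtr0175386 showed the same form. Its values were 8.44, 9.03 and 9.83 in Punta Prieta females and 11.09, 12.09 and 13.08 in Punta Prieta males, against 8.20, 9.01 and 9.53 in Las Bocas females and 9.21, 10.10 and 10.75 in Las Bocas males. The males of the 2 populations did not overlap. The interaction was -1.86 (SE 0.148, limma adjusted p = 6.46e-18).

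On the positive side, FBtr0168952 was female-biased in both populations, with 13.78, 14.45 and 14.97 in Punta Prieta females and 10.44, 11.05 and 11.87 in Punta Prieta males, against 13.40, 14.09 and 14.61 in Las Bocas females and 11.19, 11.73 and 12.11 in Las Bocas males. Both sexes overlapped between the populations. The sex difference was 3.39 in Punta Prieta and 2.30 in Las Bocas, an interaction of 1.10 (SE 0.124, limma adjusted p = 1.5e-10).

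FBtr0163647 had the largest positive interaction, 1.25 (SE 0.279, limma adjusted p = 0.00303), but with a wide spread among Las Bocas females. They ran from 9.78 over 12.94 to 14.10, against 12.65, 13.98 and 14.69 in Punta Prieta females, and the males stood at medians of 7.91 in Punta Prieta and 7.99 in Las Bocas. Without the arrays of replicate number 2 the interaction was 0.37 and did not pass (limma adjusted p = 0.66).

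**Figure D5:**
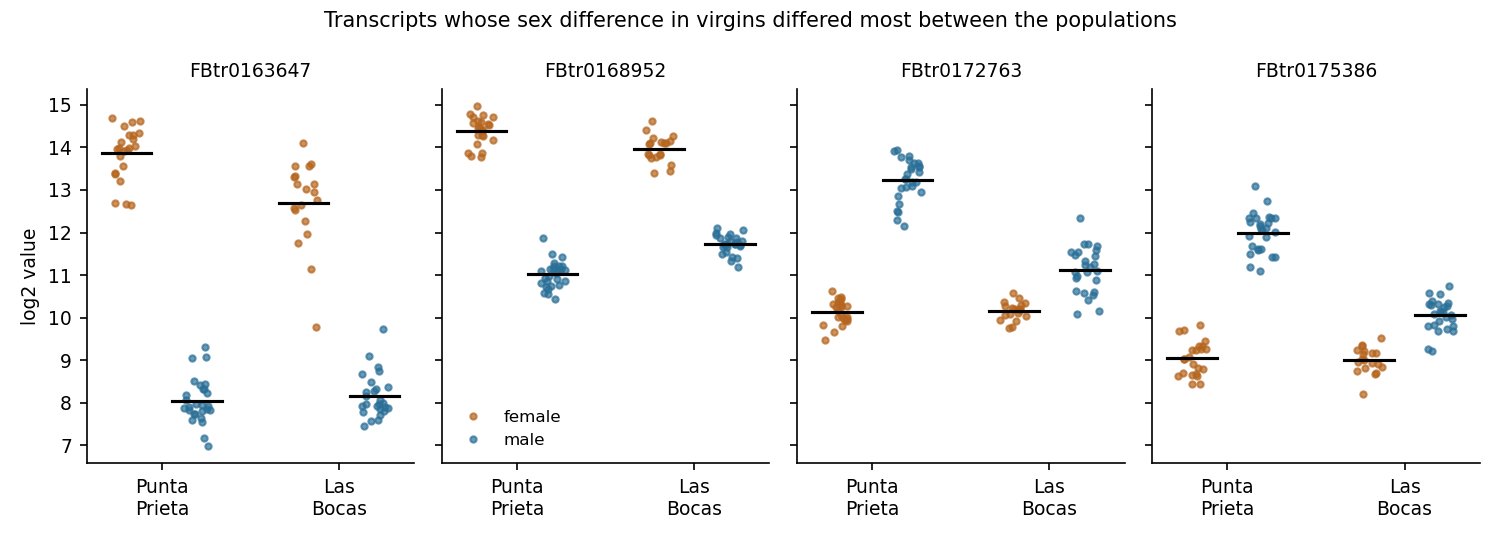
Log2 values (vertical axis) of 4 transcripts in virgin flies of Punta Prieta and Las Bocas; each point is 1 array, females left of males, and black bars mark group means. In FBtr0172763 and FBtr0175386 the males of Punta Prieta lie above most or all of those of Las Bocas while the females overlap.

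Mated flies of Punta Prieta, 12 arrays of females and 16 of males, differed from the virgins in their sex difference for 508 transcripts (limma, 3.50% of those tested), with 238 more positive and 270 more negative in mated flies. A mated male array on organ pipe, 16 days, replicate 2, lay with the females: its sex score, the mean of the female set minus that of the male set, was 3.17, where the other mated males lay between -3.23 and -2.98. Without it the count was 644 (330 and 314), and leaving out every array numbered replicate 1, which is 28 of the 78, gave 64. With all arrays, of the 5292 transcripts with a mean difference of over 0.5 towards females 229 passed (4.33%), and 171 of these had a smaller female bias in mated flies. Of the 2630 with over 0.5 towards males 27 passed (1.03%). Without the array against its label 308 of 5407 passed in the female-biased class (5.70%), 185 of them with a smaller and 123 with a larger female bias in mated flies. In the male-biased class 58 of 2653 then passed (2.19%). These shares set sex bias beside the effect of mating, and the difference between the classes was not tested.

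The most female-biased transcript of virgins, FBtr0163649, was among those with a smaller sex difference in mated flies. Mated females had 10.86, 12.04 and 14.55 (lowest, median and highest), against 13.61, 14.41 and 15.09 in virgin females. Mated males other than the array against its label had 7.41, 7.68 and 8.03, against 7.001, 7.67 and 8.48 in virgin males. The interaction was -2.14 (SE 0.41, limma adjusted p = 0.000843) with all arrays and -1.80 without that array (limma adjusted p = 4.53e-06). FBtr0162622 had a larger value, -2.29 (SE 0.689, limma adjusted p = 0.0438), but its levels ran from 7.87 to 13.82 among virgin females and overlapped in all groups. Over 18 alternative settings this value ran from -3.56 to -1.03 and did not pass in 4 of them, with limma adjusted p up to 0.659.

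FBtr0168945 and FBtr0167058 had the larger sex difference in mated flies. For FBtr0168945, mated females stood at 12.15, 13.32 and 14.02, against 9.22, 11.32 and 12.95 in virgin females, while mated males without the array against its label stood at 8.06, 8.52 and 8.81, against 8.21, 8.71 and 9.26 in virgin males. The interaction was 1.98 (SE 0.395, limma adjusted p = 0.00119), and 2.29 without that array. With the arrays of replicate number 1 left out it was 1.91 and did not pass (limma adjusted p = 0.122). For FBtr0167058, mated females stood at 12.15, 13.67 and 14.30, against 10.41, 11.28 and 12.80 in virgin females, and mated males with the same array left out at 8.16, 8.60 and 8.92, against 8.23, 8.55 and 9.05 in virgin males. Its interaction was 1.77 (SE 0.334, limma adjusted p = 0.000736), and 2.05 without that array. It did not pass with replicate number 1 left out, at 1.69 (limma adjusted p = 0.107). The females overlapped between mated and virgin flies in both transcripts. The lowest virgin female lay below the highest virgin male in FBtr0168945, whereas in FBtr0167058 the sexes did not overlap apart from the array against its label.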

How the data were processed

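The values are the log2 expression values deposited by the authors, 1 for each of 14528 transcripts on each array. They were made with RMA, per the submitters' processing notes. RMA subtracts background, brings the arrays to a common distribution and combines the probes of each transcript. Its version is not given in the sources used here. A change in total RNA per fly therefore cannot be seen. Slide positions (12 arrays per slide) were not analysed here, and slide effects were not tested. The number of arrays limits the precision.

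Fits used limma (version 3.58.1, R 4.3.3), lmFit and eBayes, with Benjamini-Hochberg adjustment over all transcripts, two-sided, at an adjusted p below 0.05. The model held sex, diet and day (linear). Interaction models added sex by diet and sex by day, and sex by population or sex by mating where these were tested. Level and spread were summarised in Python 3.11.15. The fits were tested on simulated data with independent noise and few changed transcripts. That check does not cover shifts shared by a whole array. Named transcripts are the 2 with the largest value in each direction past the threshold of each contrast. Arrays, lists and alternatives were chosen with earlier results of these data known.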

Additional observations from a re-analysis of the deposited data

Results flagged for a closer look

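In groups of 4 arrays of 1 sex, diet and day, 48 sets of values were searched for an array far from the others, and 2 were found, where chance gives about 1 in 20. The female array on organ pipe, 15 days, replicate 4, had an SD of log2 values of 1.70, where the other 3 had 1.79 to 1.81. The female array on agria, 16 days, replicate 4, had FBtr0172595 at 8.78, where the other 3 had 6.97 to 7.14.

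The sex difference differed between Punta Prieta and Las Bocas virgins for 421 transcripts by the interaction test in limma, with values of 1.25 for FBtr0163647, 1.10 for FBtr0168952, -2.13 for FBtr0172763 and -1.86 for FBtr0175386. It differed between mated and virgin flies of Punta Prieta for 508 transcripts with all arrays, including the mated male array against its label. The values were 1.98 for FBtr0168945, 1.77 for FBtr0167058, -2.29 for FBtr0162622 and -2.14 for FBtr0163649. Without that array 644 transcripts passed, and the values were 2.29, 2.05, -2.20 and -1.80 in the same order.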

How the results depend on the processing

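Of 160 recomputed counts 145 stayed within 1.5 times the value reported, among them all counts of the sex comparison, jointly and on each diet, and all counts of sex by day. Over the alternatives 5877 to 8629 transcripts were higher in females and 3382 to 4155 in males, with 282 to 337 and 1330 to 1477 over 4-fold. The lowest of these came with fewer transcripts tested, without the dimmest class. For sex by diet, 0 as reported, the count was 11 with each array centred on its median, 9 with quantile normalization, 7 without the dimmest class, 11 without the sex by day term, 1 without the 3 arrays that stand apart and 997 with array weights. Sex by population gave 3106 with array weights, 885 without those 3 arrays, and 114 to 539 with each replicate number or each of those arrays left out. Sex by mating gave 2698 with array weights, and 64 to 560 with each replicate number or each of those arrays left out. Leaving out most of the replicate numbers removes many arrays at once. Number 5 is only 1 of the 95 virgin arrays, and 504 transcripts passed for sex by population without it. The causes of these shifts were not tested. Of 204 recomputed values of named transcripts 0 changed sign and 7 no longer passed, 4 of them of FBtr0162622 and 1 each of FBtr0163647, FBtr0168945 and FBtr0167058. The last 2 were lost without the arrays of replicate number 1, at interactions of 1.91 and 1.69 against 1.98 and 1.77 with all arrays.

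Replicate numbers do not pair the samples by their labels. Of 22 same-numbered pairs of a female and a male array 10 had deviations from their group means that correlated above 0.1 (median r 0.065). The 59 differently numbered pairs of the same diet and day had a median r of -0.030. With the replicate number as a block, 8294 transcripts were higher in females and 3931 in males, and no count moved by over 1.5 times.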
